A study of Mus musculus with 18 samples.

Results

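Genes that report or carry WNT/β-catenin signalling, chosen by name, were followed through pluripotent stem cell cultures with and without a GSK3 inhibitor. They were 10 of the 55469 genes measured: the feedback targets Axin2, Sp5, Notum, Nkd1 and Lgr5, the TCF/LEF DNA-binding factors Lef1, Tcf7, Tcf7l1 and Tcf7l2, and Ctnnb1, which encodes β-catenin. The RNA-Seq comprised 18 libraries, 2 for each of 9 conditions. OSKM-ESCs were mouse embryonic stem cells moved from 2iL medium into N2B27 with doxycycline (DOX) and collected 18, 25 and 38 days later, and 2iL-ESCs were the same line kept in 2iL and collected on the same days. OSKM-iPSCs (clones 1 and 3, passages 7 and 6) had been reprogrammed from embryonic fibroblasts in N2B27 with DOX and stayed in it, 2iL-iPSCs (clones 3 and 6, passages 2 and 3) had been reprogrammed in 2iL with DOX, and the MEF cells (passage 4) were Tet-On-OSKM fibroblasts grown in DMEM with 10% FBS. For the daily culture of 2iL-iPSCs the labels name N2B27 with DOX, but the methods and the series design name 2iL without DOX after picking. All cells carried 1 polycistronic OSKM transgene (Oct4, Sox2, Klf4 and Myc) in the Col1a1 locus, switched on by DOX through an M2rtTA in the Rosa26 locus. The ESCs were a single line that also carried an Oct4-GFP reporter. ESCs, derived and grown on MEF feeder cells, came from a cross of (C57BL/6 x 129S4/SvJae)F1 with (CBA/CaJ X C57BL/6J)F2, and iPSCs and MEF cells were (C57BL/6 x 129S4/SvJae)F1. Fibroblasts to be reprogrammed were also seeded onto feeder cells. OSKM and 2iL cultures differed at the same time in a MEK inhibitor, a GSK3 inhibitor, LIF and the transgene, so their parts in a difference cannot be told apart, and in the iPSCs passage also ran with medium.

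In the absence of WNT, a destruction complex of AXIN, APC, CK1 and GSK3 marks β-catenin for degradation. WNT ligands, or a GSK3 inhibitor such as that in 2iL, let β-catenin build up and join TCF/LEF factors on DNA. The targets it switches on include inhibitors of the same pathway, so their transcripts are often used as a readout of signalling. In mouse ESCs TCF7L1 acts mainly as a repressor of pluripotency genes that β-catenin relieves, whereas TCF7 and LEF1 act mainly as activators.

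FPKM, the fragments of a transcript scaled by its length and by the mapped fragments of the library, is a level per length and was compared as log2(FPKM + 1). A difference was called when the limma p-value was under 0.05 after Benjamini-Hochberg adjustment across every gene in the fit, and errors are standard errors (SE) of the log2 difference. The depth in reads is unknown, so no counting interval is given. Per library, 11303 to 12095 genes had an FPKM over 1. Summed FPKM of 8 pluripotency markers was 925 to 3311 in the ESC and iPSC libraries and 1.15 to 2.06 in MEF cells, and that of 10 fibroblast markers was 1035 to 1181 in MEF cells. The labels do not say whether paired replicates came from separate cultures, so p-values measure the spread between these samples, which may be technical. The data are from bulk RNA, in which fewer expressing cells and less RNA per cell cannot be told apart.

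Axin2 and Sp5 were low in OSKM-ESCs at days 18 and 25 and high at day 38, whereas 2iL-ESCs moved little or the other way. AXIN2 is the WNT-induced form of the destruction complex scaffold, and SP5 is a zinc-finger factor that restrains other WNT targets. The pair rose together at day 38, as did Notum and Nkd1, described below. Promoter windows are shown for Axin2 and Sp5 alone. The sequences are the 250 bases before the RefSeq start on the + strand of GRCm38.p6, chr2:70474673-70474922 for Sp5 and chr11:108920099-108920348 for Axin2, with the TCF/LEF motif CTTTGAT in capitals. The search covered both strands, so it also took the reverse complement of that motif.
Sp5: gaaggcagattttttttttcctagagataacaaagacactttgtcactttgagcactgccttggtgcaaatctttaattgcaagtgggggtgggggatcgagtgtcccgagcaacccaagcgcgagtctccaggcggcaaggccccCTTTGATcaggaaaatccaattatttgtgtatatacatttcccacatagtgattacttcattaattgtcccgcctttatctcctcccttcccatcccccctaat
Axin2: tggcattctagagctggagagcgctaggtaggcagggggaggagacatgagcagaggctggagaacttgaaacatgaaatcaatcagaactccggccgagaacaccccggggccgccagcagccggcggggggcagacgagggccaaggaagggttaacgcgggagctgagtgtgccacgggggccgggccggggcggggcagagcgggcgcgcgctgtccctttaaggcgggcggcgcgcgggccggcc
The Sp5 window held the motif 1 time, starting 104 bases before the start site, and the Axin2 window did not hold these letters. Of 32851 windows of this length, 3.21% held the motif. Of the 10 genes, 8 had a window in the RefSeq table, and Sp5 was the 1 gene of those 8 with a match. Some genes had more than 1 window, and by gene 3.72% of the 27025 searched held the motif.

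Axin2 (ENSMUSG00000000142, chr11:108920349-108950783, + strand, GRCm38) had 4.45 and 5.77 FPKM at day 18, 6.15 and 6.68 at day 25 and 15.3 and 15.5 at day 38 in OSKM-ESCs. In 2iL-ESCs the values were 14.1 and 13.4, 19.4 and 18.7, and 15.0 and 13.5 on the same days. The OSKM libraries lay below every 2iL library at days 18 and 25 and just above them at day 38. The log2 difference, OSKM-ESCs minus 2iL-ESCs, was -1.28 ± 0.11 at day 18 (2.43-fold higher in 2iL on the FPKM + 1 scale, adjusted p = 8.5e-06). It was -1.44 ± 0.11 on day 25 (adjusted p = 4.4e-06). At day 38 it was 0.11 (95% CI -0.14 to 0.35, adjusted p = 0.45), so a difference between the media was not detected there. From day 25 to day 38 Axin2 rose 2.21-fold in OSKM-ESCs (log2 difference 1.15 ± 0.11, adjusted p = 6.9e-05). In 2iL-ESCs Axin2 rose by 0.44 ± 0.11 from day 18 to day 25 (adjusted p = 0.0087), which missed the threshold without replicate 1 of day 25 (0.41, adjusted p = 0.054). The later step in 2iL-ESCs was -0.40 ± 0.11 with an adjusted p of 0.039, and it missed the threshold without any of 8 libraries, with adjusted p-values up to 0.21 (without replicate 2 of 2iL-ESCs at day 38). The step itself differed between the media by 1.54 ± 0.15 (adjusted p = 0.00018).

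Sp5 (ENSMUSG00000075304, chr2:70474923-70477729, + strand) had 3.36 and 6.63 FPKM at day 18, 2.01 and 1.49 at day 25 and 14.9 and 15.9 at day 38 in OSKM-ESCs. In 2iL-ESCs it went from 10.7 and 11.9 through 8.59 and 8.20 to 6.58 and 5.67. No OSKM library overlapped a 2iL library on any day, but the order of the media was turned around at day 38. The log2 difference between the media was -1.09 ± 0.22, -1.78 ± 0.22 and 1.21 ± 0.22 on the 3 days, with adjusted p-values of 0.0023, 0.00011 and 0.0012. Without replicate 1 of OSKM-ESCs at day 18 the day 18 difference was -0.69 (adjusted p = 0.0046). Sp5 fell from day 18 to day 25 in OSKM-ESCs (log2 difference -1.07 ± 0.22, adjusted p = 0.0052) and then rose 6.00-fold to day 38 (log2 difference 2.58 ± 0.22, adjusted p = 3.8e-05). The fall was -0.67 (adjusted p = 0.0089) without replicate 2 of day 18, and it was lost when all 18 libraries shared a single fit (adjusted p = 0.11). In 2iL-ESCs the steps of -0.39 and -0.40 were not called, and they passed when replicate 1 (adjusted p = 0.025 and 0.049) or replicate 2 (adjusted p = 0.025 and 0.049) of OSKM-ESCs at day 18 was left out.

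**Figure D1:**
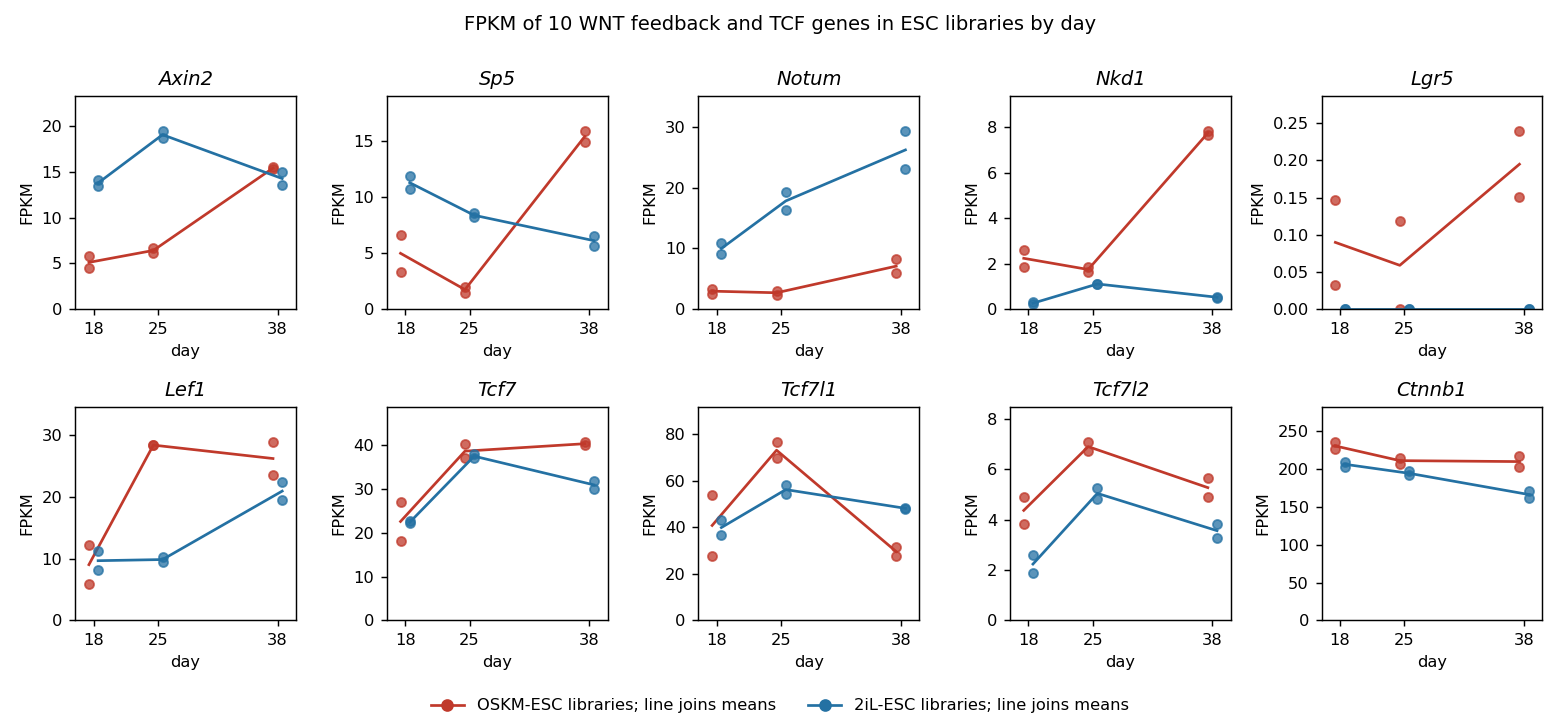
FPKM of the 10 genes (vertical axes, each from 0) against the day after the medium switch (horizontal axis, to scale), with a point for each OSKM-ESC library (red) and 2iL-ESC library (blue) and lines through the means of 2. Axin2, Sp5 and Nkd1 show their highest OSKM-ESC levels at day 38 (15.3 to 15.5, 14.9 to 15.9 and 7.66 to 7.82 FPKM), whereas Tcf7l1 goes down to 27.7 and 31.4 FPKM there.

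Notum, a secreted enzyme that inactivates WNT ligands by removing their lipid, was the target that stayed higher in 2iL-ESCs on every day. Notum (ENSMUSG00000042988, chr11:120653788-120661175, - strand) had 2.56 and 3.37 FPKM at day 18, 3.01 and 2.39 at day 25 and 8.19 and 5.97 at day 38 in OSKM-ESCs, against 10.8 and 9.15, 19.2 and 16.4, and 23.1 and 29.3 in 2iL-ESCs. All 6 OSKM-ESC libraries lay below all 6 2iL-ESC libraries. The log2 difference over the 3 days was -1.86 ± 0.15 (3.63-fold higher in 2iL-ESCs, adjusted p = 9e-07), and it was -1.47, -2.35 and -1.76 on days 18, 25 and 38, each called. Notum rose from day 25 to day 38 in OSKM-ESCs by 1.12 ± 0.18 (adjusted p = 0.0015). That step exceeded the one in 2iL-ESCs by 0.59 (95% CI 0.02 to 1.16, adjusted p = 0.12), which missed the threshold. From day 18 to day 25 it rose in 2iL-ESCs by 0.78 ± 0.18 (adjusted p = 0.0065), which was lost without replicate 1 of day 25 (0.67, adjusted p = 0.050). The ratio of FPKM to mean coverage for Notum ran from 0.182 to 0.318 across libraries, and with coverage in place of FPKM this early step was 0.26 (adjusted p = 0.15) and the later one 0.59 (adjusted p = 0.021) in place of 0.53 (adjusted p = 0.080).

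Nkd1, a cytoplasmic inhibitor that binds Dishevelled, went the other way from Notum and was higher in OSKM-ESCs on every day. Nkd1 (ENSMUSG00000031661, chr8:88521354-88594884, + strand) had 1.86 and 2.61 FPKM at day 18, 1.65 and 1.83 at day 25 and 7.82 and 7.66 at day 38 in OSKM-ESCs, and 0.22 and 0.31, 1.11 and 1.10, and 0.55 and 0.50 in 2iL-ESCs. All 6 OSKM-ESC libraries lay above all 6 2iL-ESC libraries. The log2 difference over the days was 1.42 ± 0.27 (2.67-fold, adjusted p = 0.00083), and 0.86 (adjusted p = 0.0095) without day 38. By day it was 1.35 ± 0.12, 0.38 ± 0.12 and 2.52 ± 0.12, with adjusted p-values of 1.4e-05, 0.025 and 2.0e-07. The day 25 call did not hold without replicate 2 of OSKM-ESCs (0.33, adjusted p = 0.10) or without replicate 1 (0.38, adjusted p = 0.086) or 2 (0.38, adjusted p = 0.090) of 2iL-ESCs. With the low 2iL levels the size depended on the pseudocount, and with 0.1 in place of 1 the day 18 difference was 2.68. Nkd1 rose 3.19-fold from day 25 to day 38 in OSKM-ESCs (log2 difference 1.67 ± 0.12, adjusted p = 1.4e-05), which exceeded the step in 2iL-ESCs by 2.14 ± 0.17 (adjusted p = 5.4e-05). In 2iL-ESCs it rose by 0.74 (adjusted p = 0.0011) and then fell by 0.47 (adjusted p = 0.033), and the fall missed the threshold without either replicate of day 25 or day 38 (adjusted p = 0.12 to 0.15) or either OSKM-ESC replicate of day 38 (adjusted p = 0.053 and 0.054).

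Lgr5, an R-spondin receptor and stem cell marker of the gut, was scarcely detected outside MEF cells. Lgr5 (ENSMUSG00000020140, chr10:115450311-115587780, - strand) had 0.03 and 0.15, 0.12 and 0, and 0.24 and 0.15 FPKM in OSKM-ESCs at days 18, 25 and 38, and was listed at 0 in all 6 2iL-ESC and all 4 iPSC libraries. MEF cells had 1.28 and 0.86. The gene did not pass the filter of an FPKM over 1 in the ESCs, so 9 of the 10 genes were tested there.

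Of the 9 genes tested over the 3 days, 3 were called higher (Nkd1, Tcf7l2 and Ctnnb1) and 2 lower (Axin2 and Notum) in OSKM-ESCs, where 53.8% of all genes tested were called, 29.5% higher and 24.4% lower. The share of the 9 is close to that of all genes. By day, 5, 6 and 6 of the 9 were called on days 18, 25 and 38, against 50.2%, 51.7% and 50.3% of all genes. Those higher in OSKM-ESCs were 2, 3 and 4, against 29.7%, 23.3% and 29.2% of all genes, and those lower were 3, 3 and 2, against 20.5%, 28.3% and 21.1%. Fibroblast markers, which feeder cells would carry, summed to 16.2 to 27.9 FPKM in OSKM-ESCs and 3.23 to 5.48 in 2iL-ESCs, and their part in these differences was not tested. An exact two-sided permutation test with the media exchanged within days, which has 216 arrangements and 0.0093 as its smallest p, gave 0.0093 for Notum, Nkd1, Tcf7l2 and Ctnnb1, 0.028 for Lgr5, 0.056 for Axin2 and 0.13 to 0.57 for the other 4 genes, all unadjusted. The average hides the day: without day 38 the Axin2 difference was -1.36 (adjusted p = 2.6e-05) in place of -0.87 and that of Sp5 was -1.44 (adjusted p = 0.00082) in place of -0.55 (adjusted p = 0.26). The difference between the media varied with day, by the interaction F test, for Axin2, Sp5, Nkd1 and Lef1, against 37.9% of all genes.

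**Figure D2:**
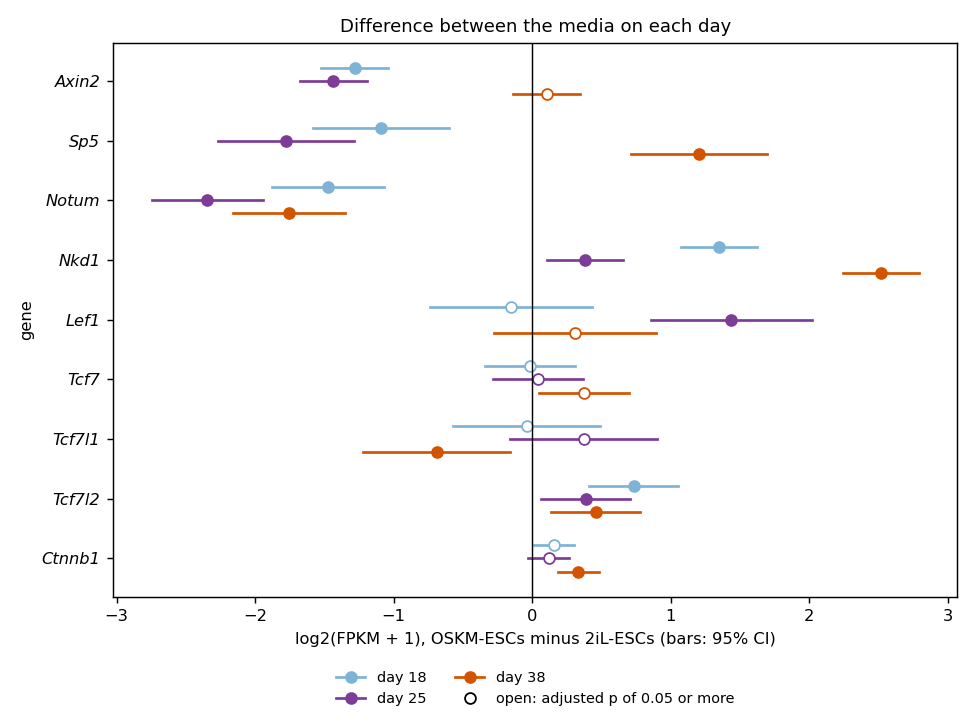
Log2(FPKM + 1) difference between OSKM-ESCs and 2iL-ESCs (horizontal axis, positive where OSKM-ESCs are higher) for 9 genes on days 18, 25 and 38, with 95% confidence intervals and open symbols where the adjusted p was 0.05 or more. Sp5 lies at -1.09 and -1.78 and then at 1.21, Notum stays below 0 and Nkd1 above 0 on each day.

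All 4 TCF/LEF factors rose from day 18 to day 25 in OSKM-ESCs, where 34.0% of all genes were called, 16.7% higher and 17.3% lower. Lef1 (ENSMUSG00000027985, chr3:131110471-131224356, + strand) had 5.83 and 12.2 FPKM at day 18, 28.3 and 28.3 at day 25 and 28.8 and 23.6 at day 38 in OSKM-ESCs. In 2iL-ESCs it had 8.16 and 11.1, 9.46 and 10.2, and 22.3 and 19.5. Lef1 reached its high level by day 25 in OSKM-ESCs and only by day 38 in 2iL-ESCs. The early rise in OSKM-ESCs was 1.63 ± 0.26 (3.09-fold, adjusted p = 0.0016), and the media differed by 1.44 ± 0.26 at day 25 (adjusted p = 0.0012). The day 18 difference was -0.15 (95% CI -0.74 to 0.43) and that at day 38 was 0.31 (95% CI -0.28 to 0.89). The late rise in 2iL-ESCs was 1.01 ± 0.26 with an adjusted p of 0.032, which missed the threshold without either replicate of day 25 or of day 38 (0.92 to 1.11, adjusted p = 0.10 to 0.16) or without replicate 1 of OSKM-ESCs at day 38 (adjusted p = 0.050). Over all days Lef1 was not called (0.53, adjusted p = 0.081), but it was without replicate 1 of OSKM-ESCs (0.73, adjusted p = 0.0076) or replicate 2 of 2iL-ESCs (0.67, adjusted p = 0.034) at day 18, and without replicate 2 of OSKM-ESCs at day 18 the day 18 difference was -0.63 (adjusted p = 0.022).

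Tcf7 (ENSMUSG00000000782, chr11:52252371-52283331, - strand), which encodes TCF1, had 18.2 and 27.0 FPKM at day 18, 40.3 and 37.1 at day 25 and 40.7 and 40.1 at day 38 in OSKM-ESCs, and 22.2 and 22.6, 38.0 and 37.1, and 32.0 and 30.0 in 2iL-ESCs. The media overlapped at days 18 and 25. Tcf7 rose from day 18 to day 25 by 0.77 ± 0.14 in OSKM-ESCs (adjusted p = 0.0035) and by 0.72 ± 0.14 in 2iL-ESCs (adjusted p = 0.0032). The rise in OSKM-ESCs was 0.50 (adjusted p = 0.0038) without replicate 1 of day 18. At day 38 the media differed by 0.37 (adjusted p = 0.055), which passed without replicate 1 or 2 of OSKM-ESCs at day 18 (adjusted p = 0.0014 each). Replicate 1 of OSKM-ESCs at day 18 also set the sign of the day 18 difference, which was -0.01 with all libraries, 0.26 (adjusted p = 0.024) without it and -0.29 (adjusted p = 0.017) without replicate 2.

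Tcf7l1, the repressor, was the TCF gene with a called fall from day 25 to day 38 in OSKM-ESCs. Tcf7l2 also went down in that step, but was not called. Tcf7l1 (ENSMUSG00000055799, chr6:72626378-72789254, - strand) had 27.6 and 53.9 FPKM at day 18, 76.4 and 69.7 at day 25 and 31.4 and 27.7 at day 38 in OSKM-ESCs. In 2iL-ESCs it had 36.8 and 42.9, 54.1 and 58.2, and 48.3 and 47.9 on the same days. Its steps there had the same signs as in OSKM-ESCs, at 0.49 (adjusted p = 0.12) and -0.22 (adjusted p = 0.59), but were not called. The OSKM-ESC libraries lay above the 2iL-ESC libraries at day 25 and below them at day 38. In OSKM-ESCs Tcf7l1 rose by 0.90 ± 0.24 from day 18 to day 25 (adjusted p = 0.017). It then fell by 1.28 from day 25 to day 38 (SE 0.24, adjusted p = 0.0033), a fold of 2.43. The rise was 0.43 (adjusted p = 0.031) without replicate 1 and 1.37 (adjusted p = 0.00024) without replicate 2 of day 18, and it missed the threshold without replicate 1 of day 25 (0.83, adjusted p = 0.077). The media differed at day 38 by -0.69 ± 0.24 (adjusted p = 0.035), a call that was lost without any of the 4 day 38 libraries (-0.60 to -0.78, adjusted p = 0.077 to 0.15). The 25 to 38 step differed between the media by -1.06 ± 0.33 (adjusted p = 0.043), which missed the threshold in 10 of 12 fits without a library, with adjusted p-values up to 0.13. Without replicate 1 or 2 of OSKM-ESCs at day 18 the interaction with day was called (adjusted p = 0.0010 and 0.0016, against 0.072 with all libraries).

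Tcf7l2 (ENSMUSG00000024985, chr19:55741820-55933654, + strand), the TCF4 factor of gut epithelium, had the lowest mean FPKM of the TCF genes in ESCs of either medium and was higher in OSKM-ESCs. OSKM-ESCs had 3.84 and 4.89 FPKM at day 18, 6.73 and 7.06 at day 25 and 5.65 and 4.89 at day 38, and 2iL-ESCs had 1.87 and 2.61, 4.84 and 5.24, and 3.84 and 3.28. On each day the OSKM-ESC pair lay above the 2iL-ESC pair. The difference over the days was 0.53 ± 0.10 (1.44-fold, adjusted p = 0.00083). On days 18, 25 and 38 it was 0.73, 0.39 and 0.46, with adjusted p-values of 0.0020, 0.045 and 0.023. The day 25 call was lost without any of the 4 day 25 libraries (adjusted p = 0.093 to 0.18) or any of the 4 day 38 libraries (adjusted p = 0.054 to 0.057), and the day 38 call without replicate 1 of OSKM-ESCs or replicate 2 of 2iL-ESCs of that day (0.37 and adjusted p = 0.14 each). From day 25 to day 38 the step was -0.34 ± 0.14 in OSKM-ESCs (adjusted p = 0.10) and -0.41 ± 0.14 in 2iL-ESCs (adjusted p = 0.088). Neither was called, though in each medium the day 38 pair lay below the day 25 pair. The rise from day 18 to day 25 was 0.56 ± 0.14 in OSKM-ESCs (adjusted p = 0.014) and 0.91 ± 0.14 in 2iL-ESCs (adjusted p = 0.00085). In OSKM-ESCs that rise missed the threshold without replicate 1 of day 18 (0.42, adjusted p = 0.095) or replicate 2 of day 25 (0.53, adjusted p = 0.051).

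Ctnnb1 (ENSMUSG00000006932, chr9:120929216-120960507, + strand) was by level the most abundant of the 10 genes and varied little. It had 202 to 235 FPKM in OSKM-ESCs, with a median of 216, and 161 to 210 in 2iL-ESCs, with a median of 194. Over the days it was 1.15-fold higher in OSKM-ESCs (log2 difference 0.20 ± 0.05, adjusted p = 0.0062), and without day 38 the difference was 0.14 (adjusted p = 0.13). At day 38 OSKM-ESCs had 202 and 217 FPKM and 2iL-ESCs 171 and 161 (log2 difference 0.33 ± 0.06, adjusted p = 0.0019). It fell by 0.22 from day 25 to day 38 in 2iL-ESCs (adjusted p = 0.048), which missed the threshold without either replicate of day 18 (adjusted p = 0.067 and 0.066), day 25 (0.15 and 0.22) or day 38 (0.11 and 0.27) of 2iL-ESCs, or either of OSKM-ESCs at day 38 (0.066 and 0.068). Transcript level does not measure β-catenin protein, which is the step the pathway controls.

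The 9 genes tested were then sorted by whether they changed course, that is, had called steps of opposite sign from day 18 to day 25 and from day 25 to day 38. Sp5 (down, then up) and Tcf7l1 (up, then down) did so in OSKM-ESCs, where 12.1% of all genes tested did. Axin2 and Nkd1 (up, then down) did so in 2iL-ESCs, where 11.8% of all genes did. The 2iL-ESC turns rested on late steps near the threshold, and between 0 and 3 of the 9 genes changed course there when a single library was left out. In OSKM-ESCs Tcf7l1 was not counted without replicate 1 of day 25, and Nkd1 joined without replicate 1 of day 18 (first step -0.40, adjusted p = 0.036). Sp5 was also the 1 gene of the 9 whose media difference was called with opposite signs on different days, against 5.62% of all genes. Without replicate 1 of OSKM-ESCs at day 18 Tcf7l1 joined it, and without replicate 2 Lef1, Tcf7 and Tcf7l1 did, which gave 2 and 4 genes. From day 25 to day 38 in OSKM-ESCs, the 4 feedback targets tested all rose, where 30.2% of all genes were called and 19.4% were called higher, and their median log2 difference was 1.41, against 0.08 over all genes. From day 18 to day 25 in 2iL-ESCs 5 of the 9 genes rose and 0 fell, where 44.6% of all genes were called, 29.3% higher and 15.3% lower. From day 25 to day 38 none of the 4 targets was called higher in 2iL-ESCs where 4.69% of all genes were, and 2 of the 4 were called lower, where 9.65% of all genes were. Lef1 had a smaller step in OSKM-ESCs than in 2iL-ESCs (difference -1.13 ± 0.37, adjusted p = 0.049), and this call missed the threshold in most fits without a library, with adjusted p-values up to 0.15 (-0.99, without replicate 2 of OSKM-ESCs at day 38).

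**Figure D3:**
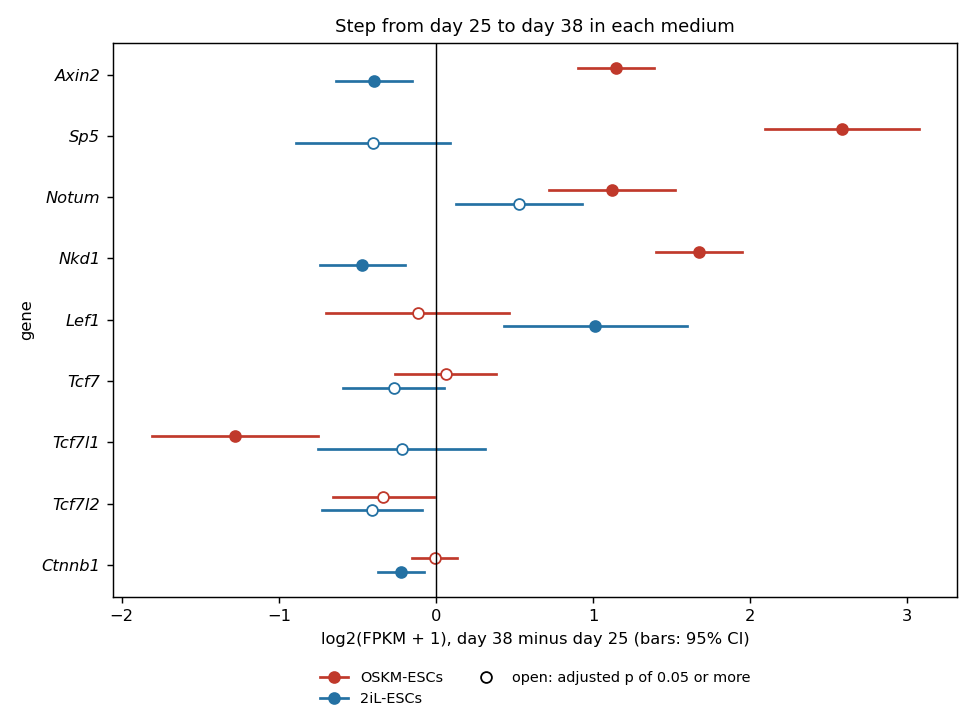
Log2(FPKM + 1) step from day 25 to day 38 (horizontal axis, positive where day 38 is higher) for 9 genes in OSKM-ESCs (red) and 2iL-ESCs (blue), with 95% confidence intervals and open symbols where the adjusted p was 0.05 or more. Axin2, Sp5, Notum and Nkd1 lie at 1.15, 2.58, 1.12 and 1.67 in OSKM-ESCs, and Tcf7l1 at -1.28.

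Primitive streak markers moved with the day 38 rise. The summed FPKM of the 5 markers T, Mixl1, Eomes, Mesp1 and Gsc was 38.1 to 53.5 at day 18, 16.7 to 17.2 at day 25 and 203.5 to 208.1 at day 38 in OSKM-ESCs, with 2, 2 and 4 of the 5 over 1 FPKM, and 6.59 to 9.62 in 2iL-ESCs, with Mesp1 at 0 there at days 18 and 25. T, a WNT target and mesoderm factor, made up most of it, at 193.9 and 198.5 FPKM at day 38. Endoderm markers summed to 4.95 to 6.63 FPKM at day 38 against 0.58 to 1.86 at day 25. The sum of 4 trophoblast markers was 1.63 to 2.12 at day 25 and 25.0 to 26.5 at day 38, and Cdx2, at 26.3 and 24.5, was the only one that rose. Krt7 went down from 1.06 and 0.74 FPKM to 0.24 and 0.42. Elf5, at 0.11 and 0.04 FPKM at day 25, and Gata3, at 0.27 and 0.20, were at 0 at day 38. Neural markers summed to 13.2 to 14.1 FPKM at day 25 and 20.55 to 20.65 at day 38, with Sox1 and Neurog2 at 0. Most of that sum was Nes, at 11.97 and 13.04 FPKM at day 25 and 19.43 and 19.02 at day 38. Nes is not limited to neural cells here, as MEF cells had 20.71 and 24.22 FPKM. Pax6 overlapped between the days, at 1.248 and 1.1 FPKM and then 1.22 and 1.527. The 8 pluripotency markers were all over 1 FPKM, with a sum of 1347 to 1398 at day 25 and 1138 to 1160 at day 38, and 2 of them were called higher and 4 lower in this step. Fibroblast markers summed to 16.2 to 16.8 FPKM at day 25 and 16.7 to 17.6 at day 38. The part of primitive streak, endoderm, trophoblast or neural cells in the rise of Axin2, Sp5, Notum and Nkd1 was not tested.

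Other WNT pathway genes were counted by list. Of 105 genes matched, 83 were tested in the ESCs, and from day 25 to day 38 in OSKM-ESCs 35 were called higher and 9 lower, where 19.4% of all genes were higher and 10.7% lower, with a median log2 difference of 0.23 against 0.08 over all genes. Among WNT ligands 6 of 9 tested were called higher and 1 lower. Wnt8a rose from 21.3 and 18.9 to 83.8 and 87.1 FPKM (log2 difference 2.04 ± 0.09, adjusted p = 7.7e-07). Wnt5a rose from 0.61 and 0.47 to 4.40 and 4.27, and Wnt3 from 2.52 and 2.27 to 4.09 and 3.88, whereas both were at or below 0.16 in every 2iL-ESC library. Both genes of ligand secretion rose, Porcn, which lipidates WNTs, from 6.51 and 6.51 to 22.7 and 21.3 FPKM, and Wls, which carries them to the surface, from 4.02 and 5.17 to 18.4 and 18.1. Wls had already been at 17.33 and 16.75 FPKM in OSKM-ESCs at day 18. In 2iL-ESCs Porcn also went up, from 11.7 and 11.1 FPKM at day 25 to 17.6 and 21.5 at day 38. Of the secreted inhibitors, Frzb went from 0.17 and 0.42 to 3.9 and 3.8 FPKM in OSKM-ESCs, and Sost from 0.12 and 0.03 to 4.6 and 3.7. Rspo3, an R-spondin that boosts WNT reception, went from 0 and 0.16 to 8.0 and 9.16 FPKM, the 1 gene of 4 tested on the R-spondin list that was called higher. The other 2 called fell, Rspo1 from 2.83 and 3.09 to 0.79 and 1.46 FPKM and the receptor Lgr4 from 20.9 and 25.8 to 15.2 and 16.3, and the list's median log2 difference was -0.42. Of the other WNT targets, 9 of 14 tested rose and 1 fell in this step. Cdx1, a caudal homeobox gene, traced Sp5: it had 4.42 and 8.10, 2.27 and 1.13, and 47.6 and 47.8 FPKM in OSKM-ESCs at days 18, 25 and 38, against 26.0 to 33.2 in 2iL-ESCs. Its difference between the media was -2.24, -3.60 and 0.77 on the log2 scale, each called. Cdx2, chosen after its values were seen, had 0.64 to 0.93 FPKM at days 18 and 25 before the day 38 values given above.

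**Figure D4:**
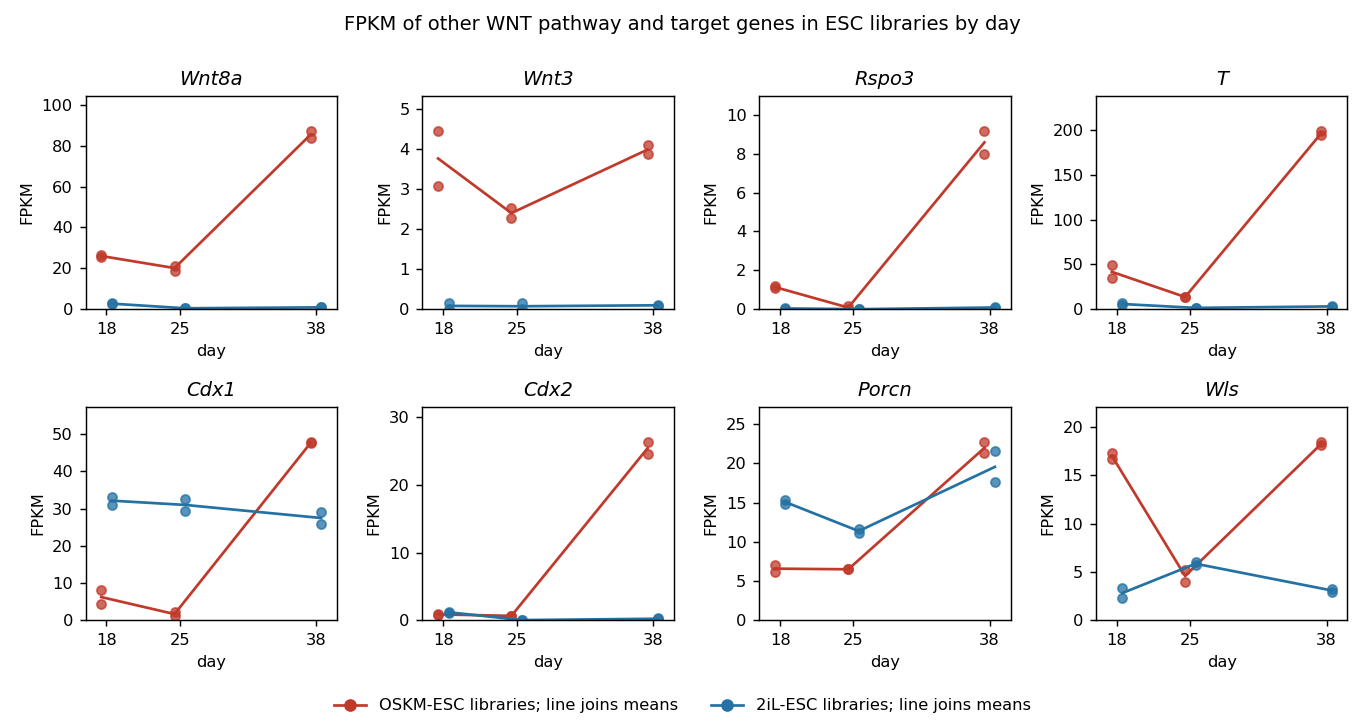
FPKM (vertical axes, each from 0) of 8 other WNT pathway and target genes against the day after the medium switch, with a point for each OSKM-ESC library (red) and 2iL-ESC library (blue) and lines through the means of 2. Wnt8a, Rspo3, T, Cdx1 and Cdx2 have day 38 OSKM-ESC values above every other library shown in their panels.

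Between the media over the 3 days, 41 of the 83 pathway genes were called higher and 14 lower in OSKM-ESCs, where 29.5% of all genes were higher and 24.4% lower. Of 15 receptors, 11 were called higher and 1 lower. Fzd7 had 19.4 to 43.2 FPKM in OSKM-ESCs and 6.10 to 13.3 in 2iL-ESCs, Fzd2 had 9.32 to 20.2 and 3.51 to 4.03, and neither overlapped. Of 9 secreted inhibitors tested, 5 were called higher and 1 lower, Sfrp2 among the former (log2 difference 1.46 ± 0.17). Of 13 genes of the destruction complex and Dishevelled, 1 was higher (Gsk3b, 0.35 ± 0.11) and 1 lower (Btrc, -0.58 ± 0.09). Gsk3b missed the threshold without replicate 1 or 2 of OSKM-ESCs at day 18 (adjusted p = 0.052 and 0.051) or replicate 2 of either medium at day 38 (adjusted p = 0.051 and 0.052), and with coverage in place of FPKM (0.26, adjusted p = 0.12). Among nuclear cofactors 5 of 11 were higher and 3 lower. Tle5, a short member of the Groucho family, had 22.3 to 30.0 FPKM in OSKM-ESCs and 103 to 128 in 2iL-ESCs (log2 difference -2.13 ± 0.08, adjusted p = 2e-09). All 6 genes listed as bound and repressed by TCF7L1 in ESCs (Esrrb, Nanog, Tfcp2l1, Klf2, Nr0b1 and Tbx3, which are also naive pluripotency genes) were called lower in OSKM-ESCs on each day, with a median log2 difference of -3.04 over the days against 0.03 over all genes. Tbx3 had 0.49 to 1.10 FPKM in OSKM-ESCs and 13.9 to 48.2 in 2iL-ESCs. From day 25 to day 38 in OSKM-ESCs 3 of the 6 were called higher and 0 lower, where 19.4% of all genes were higher and 10.7% lower. Tfcp2l1 went from 2.57 and 3.12 to 5.16 and 4.77 FPKM. Klf2 had 10.9 and 11.1 FPKM at day 25 and 10.7 and 10.6 at day 38. Tbx3 had 0.81 and 1.10 at day 25 and 0.60 and 0.50 at day 38. The part of Tcf7l1 in these values was not tested.

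In iPSCs Axin2 and Notum were lower in OSKM-iPSCs than in 2iL-iPSCs, and the other genes tested did not pass with 2 clones a group. Axin2 had 5.25 and 2.13 FPKM in OSKM-iPSC clones 1 and 3 and 15.7 and 12.7 in 2iL-iPSC clones 3 and 6 (log2 difference -1.77 ± 0.36, adjusted p = 0.046). Notum had 2.48 and 1.77 against 25.2 and 23.0 (log2 difference -3.01 ± 0.21, adjusted p = 0.0072). Sp5 had 2.24 and 0 against 5.92 and 2.87, a difference of -1.52 (adjusted p = 0.17), and Nkd1 had 1.44 and 1.21 against 0.20 and 0.39, a difference of 0.85 (adjusted p = 0.13). For Axin2, Sp5, Notum and Nkd1, as for 3 of the genes described next, no OSKM-iPSC clone overlapped a 2iL-iPSC clone. With 2 clones a group this can also arise without a difference between the media. The share of all genes without overlap was not counted. In all, 2 of 9 genes were called lower and 0 higher, against 7.96% of all genes called and 2.96% called lower, and at an unadjusted p under 0.05 there were 2 lower and 2 higher. The Axin2 call was lost without OSKM-iPSC clone 3 (-1.27, adjusted p = 0.050) or either 2iL-iPSC clone (adjusted p = 0.35 and 0.34), and the Notum call without either 2iL-iPSC clone (-2.95 and -3.08, adjusted p = 0.32 each). Without an expression filter, neither passed (adjusted p = 0.16 and 0.12). The summed FPKM of 10 fibroblast markers was 72.9 in OSKM-iPSC clone 1 and 4.32 in clone 3, in which Lef1 had 2.63 and 6.45 FPKM. The part of fibroblasts, feeder cells included, in these values was not tested.

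None of the 4 TCF genes was called between the iPSC media. The clones of the media did not overlap for Tcf7, Tcf7l2 and Ctnnb1, to which the same limit of 2 clones a group applies. Tcf7 had 20.9 and 21.8 FPKM in OSKM-iPSCs and 17.8 and 16.4 in 2iL-iPSCs, Tcf7l1 had 39.4 and 32.3 against 38.1 and 38.0, and Tcf7l2 had 5.38 and 4.13 against 2.82 and 1.54. The differences were 0.30 (95% CI -0.09 to 0.70), -0.09 (95% CI -0.50 to 0.32) and 0.88 (95% CI 0.13 to 1.62, adjusted p = 0.13). Tcf7l2 was called when all 18 libraries shared a single fit (adjusted p = 0.0039). Ctnnb1 had 244 and 252 against 210 and 222.

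Against the MEF cells, the iPSCs of both media had more Lef1, Tcf7 and Tcf7l1 and less Tcf7l2 and Lgr5. MEF cells had 0.57 and 0.53 FPKM of Lef1, 1.12 and 1.37 of Tcf7, 7.72 and 9.12 of Tcf7l1 and 8.39 and 7.21 of Tcf7l2. Tcf7 changed most among the TCF genes, by 3.32 ± 0.14 in OSKM-iPSCs (adjusted p = 0.0011) and 3.01 ± 0.12 in 2iL-iPSCs (adjusted p = 4.1e-05). Tcf7l1 differed by 1.96 ± 0.16 and 2.05 ± 0.11 and Lef1 by 1.75 ± 0.39 and 2.04 ± 0.13. Tcf7l2 differed by -0.62 ± 0.18 (adjusted p = 0.041) and -1.50 ± 0.23 (adjusted p = 0.0025). In 2iL-iPSCs Axin2, Sp5 and Notum were called higher than in MEF cells, at 2.18 ± 0.15, 2.32 ± 0.30 and 3.32 ± 0.17, while in OSKM-iPSCs their differences were 0.41, 0.80 and 0.31 (adjusted p = 0.38, 0.31 and 0.32). Each iPSC group was set against the same 2 MEF libraries. In OSKM-iPSCs 3 of the 10 genes were called higher and 2 lower, where 60.3% of all genes were called and 26.4% were lower, and in 2iL-iPSCs 6 and 2, where 78.0% were called and 37.4% were lower. With 2 libraries a group the calls depended on single libraries: without MEF replicate 1 the adjusted p was 0.065 for Tcf7 and Tcf7l1, 0.16 for Lef1 and 0.29 for Tcf7l2 in OSKM-iPSCs, and 0.064 for Sp5 and 0.088 for Tcf7l2 in 2iL-iPSCs. Without MEF replicate 2 it was 0.062 for Tcf7, Tcf7l1 and Lgr5, 0.16 for Lef1 and 0.20 for Tcf7l2 in OSKM-iPSCs, and 0.067 for Sp5 and 0.072 for Tcf7l2 in 2iL-iPSCs. Without OSKM-iPSC clone 3, Axin2 (0.91, adjusted p = 0.030) and Sp5 (1.65, adjusted p = 0.0067) were also called in OSKM-iPSCs, and Tcf7l2 was not (-0.46, adjusted p = 0.088). Nkd1 in 2iL-iPSCs was -0.54 (adjusted p = 0.059) and passed without MEF replicate 2 (-0.75, adjusted p = 0.050).

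**Figure D5:**
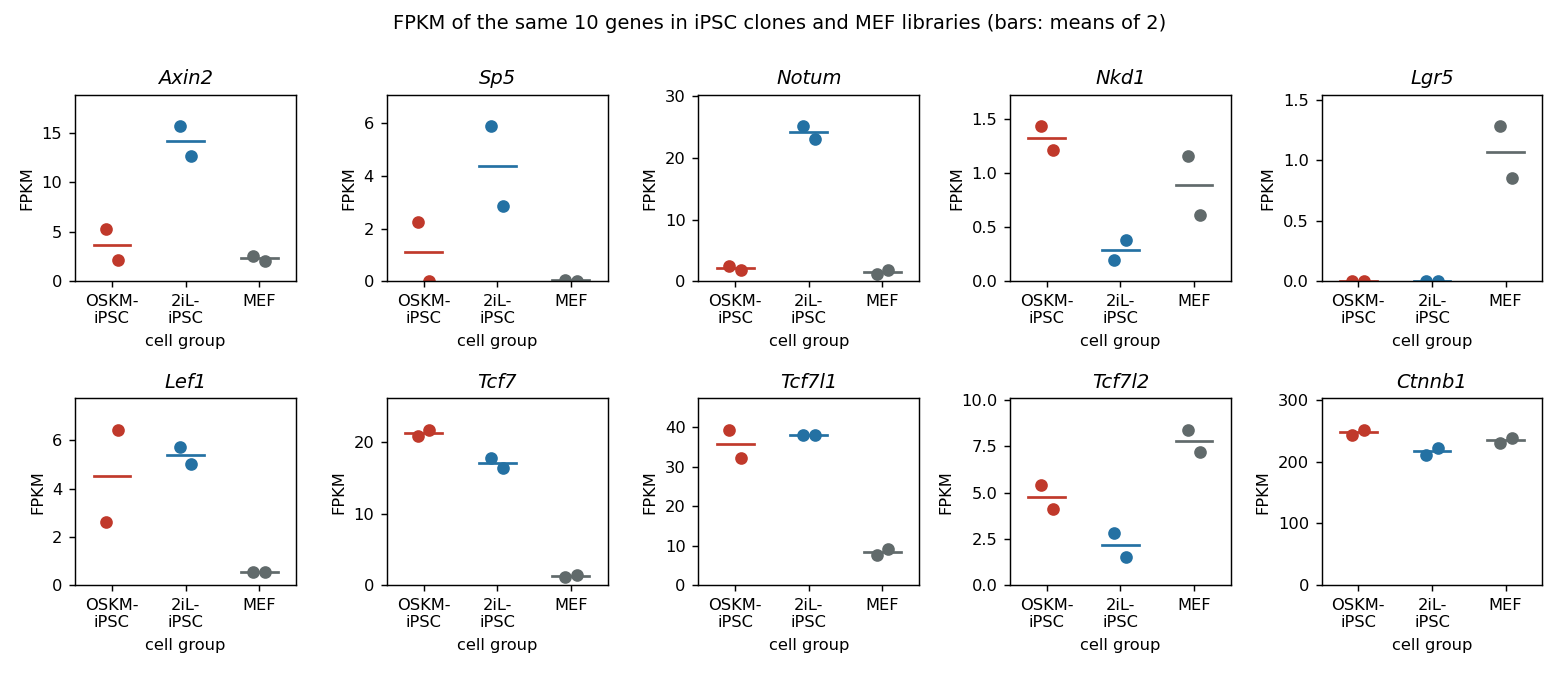
FPKM (vertical axes, each from 0) of the 10 genes in OSKM-iPSC clones (red), 2iL-iPSC clones (blue) and MEF libraries (grey), with a point for each library and a bar at the mean of 2. Notum sits at 23.0 and 25.2 FPKM in 2iL-iPSCs and at 2.48 or less in the other libraries, and Tcf7 at 16.4 or more in the iPSCs.

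Set against the ESCs of the same medium, 0 of 9 genes were called in either iPSC group by limma, where 1.88% of all genes were called in OSKM (1.27% higher) and 3.41% in 2iL (1.62% higher and 1.79% lower), and at an unadjusted p under 0.05 there were 2 genes (both lower) in OSKM and 3 (all lower) in 2iL. Lef1 and Tcf7 lay below every ESC library in 2iL-iPSCs, by -1.09 (adjusted p = 0.12) and -0.76 (adjusted p = 0.092). Tcf7 was called without replicate 1 of 2iL-ESCs at day 18 (-0.84, adjusted p = 0.041), and Lef1 in OSKM-iPSCs was -1.91 (adjusted p = 0.13) and was called without replicate 1 of OSKM-ESCs at day 18 (-2.22, adjusted p = 0.027). When all 18 libraries shared a single fit, 6 of the genes were called lower and 1 higher in OSKM, and 3 lower and 1 higher in 2iL. The shares of all genes given above belong to the separate fits. No share is given for the single fit, so these counts have no background.

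Ordered by mean FPKM over the 9 conditions, Axin2 was highest in 2iL-ESCs at day 25 (19.1), followed by OSKM-ESCs at day 38 (15.4), 2iL-ESCs at day 38 (14.3), 2iL-iPSCs (14.2) and 2iL-ESCs at day 18 (13.8), of which the last 3 overlapped. The 2iL-iPSC clones, at 15.7 and 12.7, also overlapped OSKM-ESCs at day 38, at 15.3 and 15.5. OSKM-ESCs at day 25 (6.42) and day 18 (5.11), OSKM-iPSCs (3.69) and MEF cells (2.33) came after, and the last 3 in this order overlapped with their neighbours. Sp5 was highest in OSKM-ESCs at day 38 (15.4), Notum in 2iL-ESCs at day 38 (26.2) and Nkd1 in OSKM-ESCs at day 38 (7.74). Tcf7l1 was highest in OSKM-ESCs at day 25 (73.1). The genes whose 9 condition means ran most like Axin2, of 15567 genes compared by Pearson's r on the log2 scale, were Unc119b, Dnaaf3 and Gjc1 (r = 0.97 each) and Cep128 and Ttyh1 (r = 0.96 each). The 9 points share their libraries with the comparisons above. Within the 6 OSKM-ESC and the 6 2iL-ESC libraries, the r of Gjc1, a gap junction gene on chromosome 11, was 0.98 in both, and that of Cep128 was 0.89 and -0.11. Gjc1 had mean FPKM of 12.7, 13.2 and 27.0 in OSKM-ESCs at days 18, 25 and 38.

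The replicates of OSKM-ESCs at day 18 differed in several of these genes. Replicate 2 exceeded replicate 1 by 0.81 for Sp5, 0.95 for Lef1 and 0.94 for Tcf7l1 on the log2 scale, distances reached by 2.06%, 1.34% and 1.38% of genes between these libraries. The difference between those 2 libraries correlated with GC content across genes (r = 0.255, over genes, which are not independent replicates), and at day 25 the r was -0.49. The part of this in the day 18 values was not tested.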

How the data were processed

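RNA-Seq was deposited for 18 libraries. The authors aligned reads to GRCm38/mm10 with STAR 2.7.1a, kept uniquely mapped reads and ran StringTie 2.0, whose FPKM and mean coverage (a signal per base, not normalized) were used as deposited. Uniquely mapped reads understate genes with near-identical copies. The authors' Cuffdiff 2.2.1 analysis needs reads and was not repeated. Of 55471 genes, 2 with a failed value were left out, and 11 repeated identifiers were summed. Groups came from sample titles.

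In R 4.3.3, log2(FPKM + 1) values were modelled with limma 3.58.1 (lmFit, eBayes, trend), leaving out genes that never exceeded 1 FPKM among the libraries used. The models were medium plus day, or 6 condition means, in the 12 ESC libraries, and only the groups compared for iPSCs and MEF cells. Adjustment was over all genes tested. Python 3.11.15 (pandas 2.3.3, numpy 2.4.6) made the exact tests and figures. The fits were tested on simulated data. The genes and pathway lists (105 of 106 symbols matched) were chosen with earlier results of these data known. All 10 genes are named, with up to 3 per pathway list, those with the largest called difference over the days, and the 5 genes most like Axin2. Alternatives were a pseudocount of 0.1, no filter, median-ratio scaling, quantile normalization, a single fit of all libraries, separate fits of each day, a replicate block and leaving out each library. Coverage in place of FPKM, leaving out day 38 and the contrast of steps were added after the data were seen.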

Additional observations from a re-analysis of the deposited data

Results flagged for a closer look

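The gap between the media in ESCs depended on the day for 4 of the 9 genes tested, by limma's interaction F test: Nkd1 (adjusted p = 7.6e-05), Axin2 (adjusted p = 0.00014), Sp5 (adjusted p = 0.00024) and Lef1 (adjusted p = 0.018), where 37.9% of all genes were called. For Axin2 the log2 difference went from -1.44 at day 25 to 0.11 at day 38, for Sp5 from -1.78 to 1.21, for Nkd1 from 0.38 to 2.52 and for Lef1 from 1.44 to 0.31. The Lef1 interaction missed the threshold without replicate 1 (adjusted p = 0.062) or 2 (adjusted p = 0.052) of 2iL-ESCs at day 25. Notum lay at the threshold (adjusted p = 0.050) and passed without replicate 1 of OSKM-ESCs at day 18 (0.044) or replicate 2 of OSKM-ESCs (0.039) or 2iL-ESCs (0.049) at day 38.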

How the results depend on the processing

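The counts of genes called lower over all days (2), lower at day 25 (3) and higher (4) and lower (1) from day 25 to day 38 in OSKM-ESCs were the same whichever library was left out. Over single genes and alternatives, 2498 values kept direction and side of the threshold, 66 came to pass it, 156 came to miss it and 24 changed sign. The cause of these changes was not tested. Groups of 2 libraries and an unknown read depth limit what was detectable, and with a library left out, the lone sample was assumed to vary like the other groups.

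With each library left out in turn, the genes called higher over all days numbered 3 to 5. Those called higher and lower were 2 to 4 and 3 to 6 at day 18, 1 to 4 higher at day 25, and 3 to 5 and 1 to 2 at day 38. They were 3 to 5 and 1 to 2 from day 18 to day 25 in OSKM-ESCs, 3 to 6 and 0 to 1 in 2iL-ESCs, and 0 to 1 and 0 to 5 from day 25 to day 38 in 2iL-ESCs. In iPSCs 0 to 2 were lower, against MEF cells 0 to 5 higher and 0 to 2 lower in OSKM-iPSCs and 5 to 6 and 0 to 2 in 2iL-iPSCs, and against ESCs 0 to 1 lower in either medium. The interaction was called for 3 to 7 genes. Changes of course numbered 1 to 3 in OSKM-ESCs and 0 to 3 in 2iL-ESCs, and differences between media with opposite signs 1 to 4.

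With all 18 libraries in a single fit, 5 genes were higher over all days, 1 higher at day 25, 0 lower from day 18 to day 25 in OSKM-ESCs, 0 higher and 0 lower from day 25 to day 38 in 2iL-ESCs, 3 higher in OSKM-iPSCs than 2iL-iPSCs, 1 higher and 6 lower in OSKM-iPSCs than OSKM-ESCs, and 1 higher and 3 lower in 2iL-iPSCs than 2iL-ESCs, with 1 and 0 changes of course in OSKM-ESCs and 2iL-ESCs. With no filter, 1 was higher at day 25, 1 lower at day 38, 0 higher and 0 lower from day 25 to day 38 in 2iL-ESCs, 0 lower in OSKM-iPSCs than 2iL-iPSCs and 1 lower in OSKM-iPSCs than MEF cells, with 1 and 0 changes of course. Median-ratio scaling and quantile normalization gave 2 lower from day 25 to day 38 in OSKM-ESCs, and quantile normalization 1 change of course in 2iL-ESCs. A pseudocount of 0.1 gave 1 lower from day 25 to day 38 in 2iL-ESCs, 1 lower in OSKM-iPSCs than 2iL-iPSCs and 1 change of course in 2iL-ESCs. Separate fits of each day gave 2 differences of opposite sign (Sp5 and Tcf7l1), and coverage gave 2 higher from day 25 to day 38 in 2iL-ESCs (Lef1 and Notum). Median-ratio scaling moved the median of all genes between OSKM-iPSCs and MEF cells from 0.19 to 0.02. Shares of all genes called under these alternatives are not given, so the counts in this paragraph have no background.

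With the replicate number as a block, 1 gene (Nkd1) was lower from day 25 to day 38 in 2iL-ESCs and 1 changed course there. The numbers did not pair the samples: deviations of same-numbered OSKM-ESC and 2iL-ESC libraries correlated at r = 0.13, 0.090 and 0.012 on days 18, 25 and 38 over 14016 genes.

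The log2 differences that changed sign were uncalled with all libraries. Ranges below are over libraries left out. Axin2 ran from -0.09 (without OSKM-iPSC clone 1) to 0.91 against MEF cells in OSKM-iPSCs and from -0.28 to 0.02 (without 2iL-iPSC clone 6) in 2iL-iPSCs against ESCs. Notum ran from -0.24 to 0.05 from day 18 to day 25 in OSKM-ESCs, with 0.02 without replicate 2 of day 25. Lef1 ran from -0.63 to 0.32 at day 18, with 0.05 without 2iL-ESC replicate 2, from -0.26 to 0.02 from day 25 to day 38 in OSKM-ESCs, from -0.81 to 0.22 in iPSCs, and from -0.16 to 0.24 from day 18 to day 25 in 2iL-ESCs, with -0.01 without replicate 2 of day 25. Tcf7 ran from -0.29 to 0.26 at day 18 and down to -0.02 at day 25. Tcf7l1 ran from -0.51 to 0.43 at day 18, with 0.07 without 2iL-ESC replicate 2, and from -0.23 to 0.05 in iPSCs. Ctnnb1 ran from -0.06 to 0.04 from day 25 to day 38 in OSKM-ESCs, with 0.02 without replicate 1 of day 25. Median-ratio scaling gave -0.04 for Lef1 from day 18 to day 25 in 2iL-ESCs, -0.03 for Tcf7 from day 25 to day 38 in OSKM-ESCs and -0.12 for Ctnnb1 in OSKM-iPSCs against MEF cells. Quantile normalization gave -0.15 for Lef1 and 0.11 for Ctnnb1 from day 18 to day 25 in 2iL-ESCs and 0.05 for Ctnnb1 from day 25 to day 38 in OSKM-ESCs. Without day 38, Tcf7l1 was at 0.17 over the days.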
